A study of Mus musculus with 25 samples.

Results

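The regions described here are H3K27ac peaks that both TCF1 KO lists held and neither empty vector list held, where such regions lay close together. Peaks of the 4 H3K27ac lists were merged wherever they touched, which gave 49781 regions, and 2402 of these (4.83%) were held by both TCF1 KO lists and by no empty vector list. Each such knockout-only region was assigned by its start to a fixed 500 kb bin of the mm10 genome. A bin on an autosome with 8 or more of them was called a cluster bin, and 29 bins passed, which is 0.935% of the 3102 autosomal bins with any H3K27ac region. The 29 cluster bins held 324 of the 2376 autosomal knockout-only regions (13.6%), and these 324 regions are called members. Members were chosen by H3K27ac peak calls in these 4 lists, so their H3K27ac values are given as a description, with no test.

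The study used chromatin immunoprecipitation followed by sequencing to ask how TCF1, the transcription factor encoded by Tcf7, takes part in folding the genome of T cell precursors. Of its 25 samples, 18 came from Scid.adh, a mouse thymic lymphoma line that resembles the DN3 stage of T cell development, and 7 came from NIH-3T3 fibroblasts. TCF1 KO cells had 2 lists each for H3K27ac, SMC1, NIPBL and CTCF. Cells with empty vector, which keep TCF1, had 2 lists each for the same antibodies and 2 for TCF1 itself. NIH-3T3 cells induced to express TCF1 had 1 TCF1 list, 1 SMC1 list and 2 CTCF lists, and untreated NIH-3T3 cells had 1 SMC1 list and 2 CTCF lists. Both Scid.adh groups share the one lymphoma line, and whether the knockout was 1 clone or a pool, and whether numbered lists came from separate cultures, is not given in the sources used here. Spread between lists may therefore be technical, and p-values measure only that spread.

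H3K27ac is an acetylation of histone H3 found at active promoters and enhancers. SMC1 is a subunit of cohesin, the ring that extrudes chromatin loops, NIPBL loads and drives cohesin, and CTCF stops loops at its binding sites. TCF1 binds with its HMG box and is needed for commitment of early thymic progenitors to the T lineage. Enhancers that work together often sit as groups of acetylated elements across a gene or the space beside it.

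Promoter sequence is shown for the protein-coding genes of the named set, or next to it, whose promoter window a member overlapped, because a promoter is where a new acetylation mark can be read against a known start. Windows ran from 250 bases before to 50 bases after the RefSeq start on GRCm38.p6, the build that mm10 stands for. Capitals mark every match, on either strand, to the TCF/LEF core CTTTGA, which reads TCAAAG on the other strand, to the RUNX core TGTGGT, which reads ACCACA there, or to the E-box CAGGTG, which reads CACCTG. These motifs do not overlap one another in the windows shown.
Fcmr promoter, chr1:130865527-130865826, plus strand: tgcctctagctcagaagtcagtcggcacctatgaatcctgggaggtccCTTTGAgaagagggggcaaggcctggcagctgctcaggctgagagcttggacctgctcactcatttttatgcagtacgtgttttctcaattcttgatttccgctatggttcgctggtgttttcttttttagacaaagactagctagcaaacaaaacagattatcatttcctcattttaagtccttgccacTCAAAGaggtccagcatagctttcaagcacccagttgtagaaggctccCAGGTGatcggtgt
Lysmd4 promoter, chr7:67222294-67222593, plus strand: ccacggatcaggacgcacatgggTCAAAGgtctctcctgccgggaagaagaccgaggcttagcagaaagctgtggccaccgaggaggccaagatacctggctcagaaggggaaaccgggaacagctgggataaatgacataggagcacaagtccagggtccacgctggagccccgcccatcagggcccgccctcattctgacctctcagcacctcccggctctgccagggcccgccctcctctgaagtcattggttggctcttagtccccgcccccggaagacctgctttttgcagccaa
Fcmr encodes the Fc receptor for IgM, and its window held 2 TCF/LEF cores, 1 E-box and no RUNX core. The member at Fcmr, chr1:130863995-130865598, covered the first 72 bases of the window, with −log10 q-values of 3.84 and 3.85 in the TCF1 KO lists. The window of Lysmd4, which encodes a LysM domain protein, held 1 TCF/LEF core, and the member chr7:67221437-67224109 covered all 300 bases of it. Of 32817 promoter windows of this length, 16.0% held a TCF/LEF core, 16.8% a RUNX core and 20.2% this E-box. Only 5 of the 324 members (1.54%) overlapped any promoter window, against 2.19% of knockout-only regions outside the clusters and 17.4% of regions in every list within the same bins.

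Across the series, TCF1 KO lists of H3K27ac held 36544 and 37629 peaks and empty vector lists 38827 and 42180, and they covered similar lengths (89.8 and 91.2 Mb against 89.5 and 91.6 Mb). SMC1 lists covered more in the knockout, at 52.3 and 56.4 Mb in TCF1 KO against 37.5 and 38.7 Mb with empty vector. NIPBL lists covered 19.5 and 8.67 Mb in TCF1 KO and 4.85 and 9.69 Mb with empty vector, and CTCF lists 27.8 and 23.3 Mb in TCF1 KO and 16.6 and 23.1 Mb with empty vector. Numbers in such pairs are replicate 1 and then replicate 2 throughout. Read depth is unknown, because peak lists carry no read totals. H3K27ac peaks lay over 12 and 11 of 12 DN3 marker genes in TCF1 KO and 11 and 11 with empty vector (Rag2 was the gene without one). They lay over 0 and 0 of 6 B lineage markers in TCF1 KO and 1 and 1 with empty vector, and in each of the 4 lists over 1 of 6 myeloid, 2 of 6 natural killer and innate lymphoid, 1 of 8 fibroblast and 3 of 4 erythroid markers, Hba-a1 being the one without. Tcf7 itself carried 5 and 6 H3K27ac peaks in TCF1 KO and 7 and 6 with empty vector, which does not check the deletion.

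**Figure D1:**
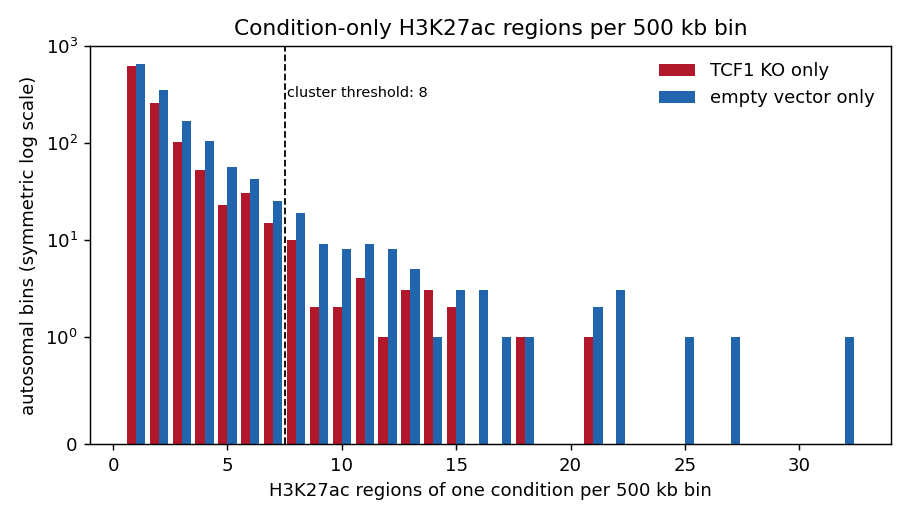
Number of autosomal 500 kb bins (y axis, symmetric log scale) by the number of condition-only H3K27ac regions they held (x axis), for regions in both TCF1 KO lists only (red) and in both empty vector lists only (blue). The dashed line marks the threshold of 8, with 29 bins at or past it for TCF1 KO and 75 for empty vector.

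Cluster bins lay on 14 of the autosomes and not on 5, 8, 9, 13 or 18, with 4 bins each on chromosomes 1, 2 and 7. On chromosome 14, 31.9% of knockout-only regions were members, and on chromosome 7 29.7%. Members per bin ranged from 8 to 21 with a median of 11, and 6 of the 29 bins touched another cluster bin. Clusters of the opposite kind, bins with 8 or more regions held only by the empty vector lists, numbered 75 and held 907 regions. No bin was a cluster of both kinds, which with 75 and 29 bins among 3102 is no result about the clusters. In 27 of the 29 cluster bins there was no empty-vector-only region at all. The exceptions were the Lpp bin with 4 and the Lrmda bin with 1. The share of all autosomal bins without an empty-vector-only region was not computed, so this count is no result either. The plot of condition-only regions per bin shows both tails.

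Members were small and weak beside the rest of the mark. Their width ran from 256 to 11068 bp with a median of 1220.5 bp, against 1009.5 bp for the 2052 knockout-only regions outside the clusters and 3720 bp for the 507 regions of the same bins that every list held. Shares of these sets that overlap a peak, a promoter window or a gene are not matched for width. The −log10 q-value that the authors gave each peak had a median over members of 2.16 in TCF1 KO replicate 1 and 2.21 in replicate 2, where all peaks of those lists had medians of 4.0 and 3.78. Fold enrichment over members had a median of 2.86 in each TCF1 KO list. The widest member, 11068 bp at chr11:59891908-59902975, lay 15.4 kb from the body of Nt5m, which encodes a mitochondrial nucleotidase.

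Members sat among acetylation that was already there. The median distance from a member to the nearest region held by every list was 6.44 kb, and 44.8% lay within 5 kb of one, against 7.97 kb and 38.9% for knockout-only regions outside the clusters. To the nearest region of any empty vector list the median was 3.8 kb, and 12 members lay more than 50 kb from one. Along a bin, 242 neighbouring pairs of members were 50 kb or less apart. The rule of 8 or more regions per 500 kb favours such spacing, so this count describes the choice and is no result about the members.

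Acetylation covered more of every cluster bin in TCF1 KO than with empty vector, by 1.22 to 11.6 times and by a median of 2.12 times. Summed over the 29 bins, H3K27ac peaks covered 3222 and 3337 kb in TCF1 KO and 1781 and 1803 kb with empty vector. Part of that sum came from regions present in every list, whose peaks covered 2511 and 2549 kb in TCF1 KO and 1696 and 1693 kb with empty vector in these bins. In all other autosomal bins the peaks at 22856 such regions covered 79296 and 79965 kb in TCF1 KO and 78618 and 78941 kb with empty vector. Peaks at shared regions of the cluster bins thus covered more in TCF1 KO, while those elsewhere had nearly the same total in both conditions. The bins were chosen by these same lists, so this contrast describes the choice and was not tested. The plot of H3K27ac coverage by bin shows that both TCF1 KO lists lay above both empty vector lists in all 29 bins. Choosing bins by regions that only the TCF1 KO lists held favours this order. The share of all autosomal bins with this order was not computed for H3K27ac, so the count is no result about the clusters.

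**Figure D2:**
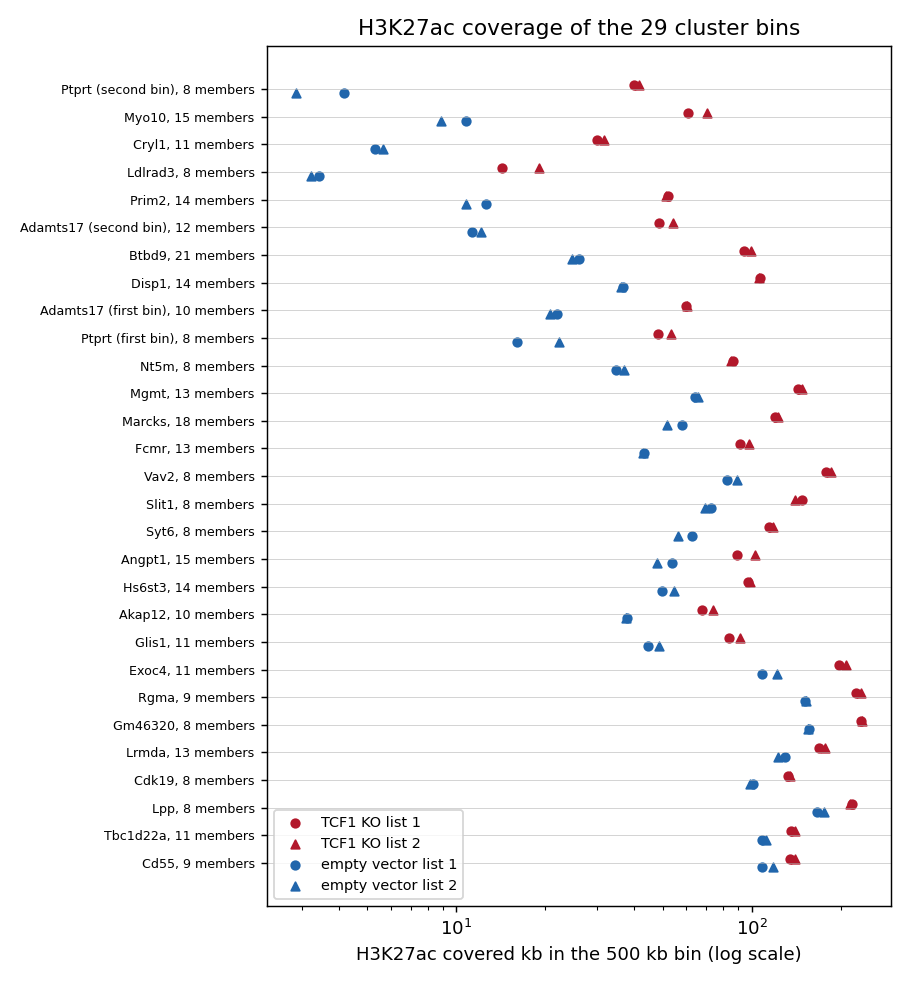
H3K27ac covered length in each of the 29 cluster bins (x axis, kb, log scale), 1 point per list, for TCF1 KO (red) and empty vector (blue), with bins named by their leading gene and ordered by the ratio of the 2 conditions. In the Ptprt bin at the top the TCF1 KO lists sit at 40.0 and 41.4 kb and the empty vector lists at 4.18 and 2.85 kb.

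Several clusters lay mostly in the body of a single gene. In 14 bins at least 50% of the members lay in 1 gene, and 143 of the 324 members lay in the leading gene of their bin, the protein-coding gene whose body overlapped most of them. Choosing the leading gene by this overlap favours both counts. The same counts for other H3K27ac regions were not computed, so they describe the bins and are no result about the clusters. Genes of 500 kb or more, of which the annotation has 226, held 46 members (14.2%), against 3.75% of knockout-only regions outside the clusters. Among these genes Lrmda held 13 members, Hs6st3 11, Exoc4 10, Ptprt 8 and Lpp 3, so the share rests on few genes. The annotation used here gives neither strand nor exons, so positions inside a gene are not split into exon and intron.

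Btbd9, which encodes a BTB domain protein, had most members of any bin (21, with 17 in the gene body at chr17:30215524-30582621). H3K27ac covered 93.9 and 99.6 kb of its bin in TCF1 KO and 26.0 and 24.7 kb with empty vector. The member chr17:30356946-30359755 had −log10 q-values of 6.95 and 6.89 in TCF1 KO and no SMC1 peak in any list.

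Ptprt, a receptor-type tyrosine phosphatase gene of 1139 kb, spans a bin where all 8 members lay in its body and adjoins a bin where 8 more lay outside it. Its own bin had 40.0 and 41.4 kb of H3K27ac in TCF1 KO and 4.18 and 2.85 kb with empty vector, and only 2 of its regions were in every list. The adjoining bin, which holds the chromatin remodeller gene Chd6, had 48.2 and 53.2 kb in TCF1 KO and 16.0 and 22.3 kb with empty vector. The mean TCF1 KO coverage was 11.6 times that of empty vector in the Ptprt bin, the highest ratio of the 29 bins, and 2.65 times in the bin beside it.

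Lrmda, a leucine-rich repeat gene linked to melanocyte differentiation, held all 13 members of its bin, where H3K27ac covered 169 and 176 kb in TCF1 KO and 129 and 123 kb with empty vector. Exoc4, a subunit of the exocyst that tethers secretory vesicles, held 10 of 11, and its bin had 198 and 208 kb in TCF1 KO and 108 and 122 kb with empty vector. Hs6st3, a heparan sulfate sulfotransferase gene, held 11 of 14, and its bin had 97.1 and 99.0 kb in TCF1 KO and 49.8 and 54.5 kb with empty vector. In these 3 bins the empty vector lists already had 31 to 79 peaks each, so members lay between peaks that were already present. Tbc1d22a, a gene of the Rab GTPase-activating family, held 8 of 11 members, Glis1, a zinc finger transcription factor gene, 7 of 11, and Slit1, a secreted axon guidance ligand, 7 of 8.

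Myo10 encodes an unconventional myosin of filopodia, and 7 of the 15 members of its bin lay in its body at chr15:25622550-25813673. H3K27ac covered 60.6 and 70.5 kb of the bin in TCF1 KO and 10.8 and 8.90 kb with empty vector. Over the gene body of Myo10 it covered 18.8 and 20.8 kb in TCF1 KO and 1.94 and 1.75 kb with empty vector. Vav2 held 4 of 8 members, and its bin had 178 and 185 kb in TCF1 KO against 82.2 and 89.1 kb with empty vector. Akap12, a scaffold for protein kinase A, had 5 of 10, and Lpp, a LIM domain protein of focal adhesions, 3 of 8.

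Disp1, needed for release of Hedgehog ligands, held 6 of 14 members, and its bin had 107 and 106 kb of H3K27ac in TCF1 KO against 36.7 and 36.1 kb with empty vector. Adamts17, a secreted metalloprotease gene, held 6 of 10 and 6 of 12 members of a pair of touching bins. The second of them had 48.6 and 54.2 kb in TCF1 KO and 11.3 and 12.1 kb with empty vector. Ldlrad3, a membrane protein with LDL receptor repeats, held 4 of 8, and its bin had 14.3 and 19.1 kb in TCF1 KO and 3.41 and 3.23 kb with empty vector. The body of Ldlrad3, which runs past the lower end of the bin, had 19.0 and 21.8 kb in TCF1 KO and 19.4 and 18.1 kb with empty vector, so the groups overlapped over the gene. Rgma, a co-receptor for bone morphogenetic proteins, held 3 of 9. A pair of touching bins on chromosome 1 covers Cd55, which restrains complement, and, in the next bin, the immunoglobulin receptor genes Fcmr and Pigr and the cytokine genes Il19, Il20 and Il24. Members of the Cd55 bin numbered 9, 2 of them in Cd55, and those of the Fcmr bin 13, spread over Fcmr, Pigr, Il19, Zp3r and C4bp or between genes. The Fcmr bin had 91.6 and 97.8 kb in TCF1 KO and 43.2 and 42.7 kb with empty vector, and the Cd55 bin 135 and 140.5 kb in TCF1 KO and 109 and 118 kb with empty vector, the lowest ratio of the 29.

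In 4 of the bins no member lay inside a protein-coding gene, and these are described by the nearest one. The 18 members nearest to Marcks, a protein kinase C substrate, and Hdac2, a histone deacetylase, began 13.8 kb from Marcks, and the bin had 120.0 and 123 kb in TCF1 KO against 57.9 and 51.6 kb with empty vector. Angpt1, a ligand of the TEK receptor, had 15 members at 16.8 kb and beyond, in a bin with 88.8 and 103 kb in TCF1 KO and 53.6 and 47.7 kb with empty vector. Next to Gm46320, a predicted gene, 8 members lay in a bin that ends before Bcl11b, the T lineage commitment factor, with 1011 kb between its last member and that gene. Its H3K27ac covered 234 and 236 kb in TCF1 KO and 157 and 155 kb with empty vector. The bin beside Ptprt is the other one.

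Prim2, the large primase subunit, was the only protein-coding gene of a bin with 14 members, of which 1 lay in it, and H3K27ac covered 52.0 and 51.2 kb in TCF1 KO and 12.6 and 10.8 kb with empty vector. Cryl1, a crystallin-related dehydrogenase gene, held the member with the highest −log10 q-values, 11.9 and 8.11 in TCF1 KO, at chr14:57349109-57351793. Its bin had 29.8 and 31.5 kb in TCF1 KO and 5.31 and 5.62 kb with empty vector. Mgmt, a DNA repair methyltransferase, held 5 of 13 members and its neighbour Ebf3, a transcription factor of the early B cell factor family, also held some. Cdk19, a Mediator kinase, held 4 of 8, and Nt5m 2 of 8. The Syt6 bin, named for a synaptotagmin, also had members at Ptpn22, which encodes a phosphatase that restrains T cell receptor signalling.

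SMC1 lists were not used to choose the members, so the cohesin subunit gave a separate view of them. Members overlapped an SMC1 peak in 37.3% and 38.9% of cases in the TCF1 KO lists and in 19.8% and 21.3% in the empty vector lists. Both TCF1 KO shares were above both empty vector shares, by 17.6 percentage points on average, and the exact permutation test over the 4 lists gave a 2-sided p of 0.333, the smallest that 2 lists against 2 allow. For knockout-only regions outside the clusters the shares were 36.5% and 38.4% in TCF1 KO and 22.4% and 28.1% with empty vector, a difference of 12.2 points (exact permutation p = 0.333). Regions of every list in the cluster bins had SMC1 in 76.3% and 80.1% of cases in TCF1 KO and 64.9% and 62.9% with empty vector. SMC1 lists covered more of the genome in TCF1 KO. With lists of equal length, the lists of each antibody were cut to the same number of peaks, keeping the widest for SMC1. H3K27ac lists were cut too, which gave 557 members, and the difference over these was 10.1 points. Covered length was not set equal, so this does not isolate the difference in SMC1 coverage.

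By member, 157 of the 324 had no SMC1 peak in any list and 41 had one in every list. Both TCF1 KO lists and no empty vector list had a peak on 29 members, and the reverse held for 1. SMC1 regions that were themselves knockout-only overlapped 33 members (10.2%), against 6.77% of knockout-only regions outside the clusters and 23.7% of regions in every list within the bins. Of 2607 SMC1 regions in the cluster bins, 358 (13.7%) were knockout-only, where the share over all autosomes was 9.24%, and 16 (0.614%) were held by both empty vector lists alone, where 0.973% were over all autosomes. These 358 lay on members in 36 cases, on H3K27ac regions of every list in 163, on other H3K27ac regions in 39 and on none in 120. The Lpp bin had the most of them with 36, the Marcks bin 33, the Mgmt bin 29 and the Gm46320 bin 27.

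**Figure D3:**
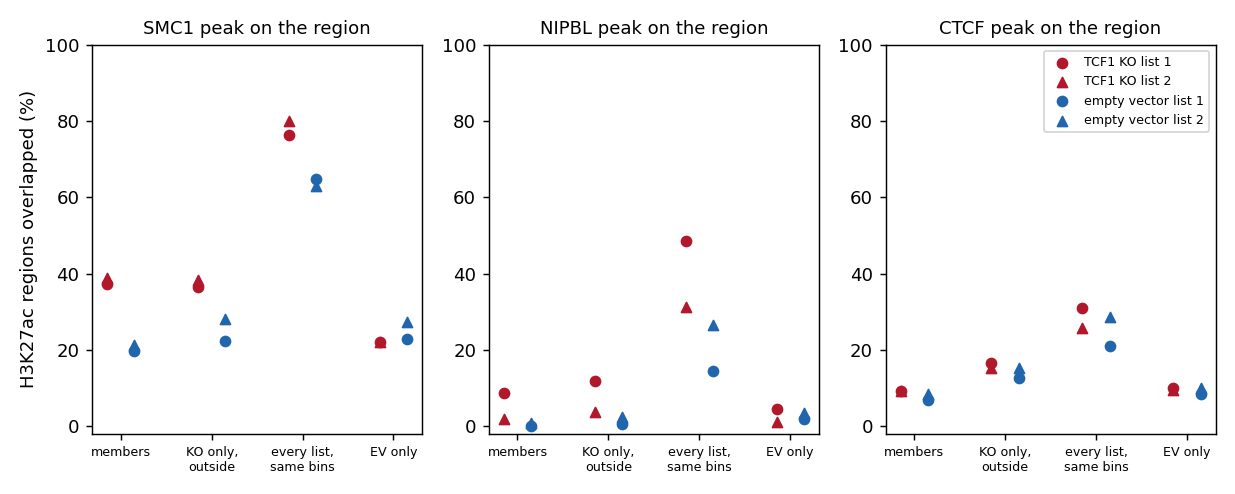
Percentage of H3K27ac regions overlapped by an SMC1, NIPBL or CTCF peak (y axis), 1 point per list, for TCF1 KO (red) and empty vector (blue), in the 324 members, knockout-only regions outside the clusters, regions of every list in the cluster bins and empty-vector-only regions. SMC1 on members sits at 37.3% and 38.9% in TCF1 KO and at 19.8% and 21.3% with empty vector.

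SMC1 coverage rose in 4 of the 29 cluster bins by limma at an adjusted p under 0.05, where 1.61% of the 3426 autosomal bins tested were called higher in TCF1 KO. Covered bases were scaled to the mean list total and 1000 bp was added before taking log2, so fold changes of sparsely covered bins are understated. None of the cluster bins was called lower (0.963% of all bins were), and 27 of 29 had an estimate above 0. Their median log2 fold change was 0.40, against −0.018 over all other autosomal bins and −0.14 over 74 tested bins with clusters of empty-vector-only regions. Before scaling, both TCF1 KO lists lay above both empty vector lists in 28 of 29 bins, but this was so in 82% of all autosomal bins with an SMC1 peak. The cluster bins were richer in acetylation, with 1509 H3K27ac regions in 29 bins against 48966 in 3102. Shares and medians over other bins are not matched for this, here and for NIPBL and CTCF below.

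The Myo10 bin had the highest SMC1 estimate of the 29. Its SMC1 peaks covered 32.4 and 32.7 kb in TCF1 KO and 10.6 and 9.12 kb with empty vector, and limma gave a log2 fold change of 1.15 (SE 0.12, adjusted p = 0.00368). This bin was called under all 11 alternatives fitted on the same bins, with limma adjusted p from 1.12e-38, in a fit without an empty vector list, to 0.0386. Of its 15 members, 7 and 8 had an SMC1 peak in TCF1 KO and 2 and 0 with empty vector. The map of the bin shows SMC1 peaks of the TCF1 KO lists among the members and over the left part of the gene as drawn.

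The Marcks bin covered 63.6 and 65.5 kb in TCF1 KO and 26.8 and 16.6 kb with empty vector, a log2 fold change of 1.07 (SE 0.20, limma adjusted p = 0.0366). Of its 18 members, 12 and 13 had an SMC1 peak in TCF1 KO and 6 and 5 with empty vector. It was called under 8 of 11 alternatives, and the adjusted p was 0.138 by number of peaks, 0.0873 with no filter and 0.0667 with peaks at or above the median width.

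The Mgmt bin covered 48.5 and 51.3 kb in TCF1 KO and 19.3 and 14.9 kb with empty vector, with a log2 fold change of 1.01 (SE 0.14, limma adjusted p = 0.0138). In the Hs6st3 bin the values were 25.4 and 29.1 kb in TCF1 KO and 11.7 and 10.4 kb with empty vector, with a log2 fold change of 0.75 (SE 0.12, limma adjusted p = 0.0198). Mgmt was called under 10 of 11 alternatives and Hs6st3 under 7, with adjusted p up to 0.0887 and 0.132. Estimates of the Lpp and Gm46320 bins were as large, at 0.77 each, but their empty vector lists lay further apart (65.0 and 36.8 kb at Lpp, 41.8 and 23.1 kb at Gm46320) and the limma adjusted p was 0.143 in each. At the other end, the Fcmr bin had 41.0 and 39.0 kb in TCF1 KO and 34.9 and 32.7 kb with empty vector, and its estimate after scaling was −0.26 (SE 0.12, limma adjusted p = 0.299). Bins with clusters of acetylation held by TCF1 KO alone ranged in SMC1 estimate from 1.15 to −0.26.

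Counts of called bins hung on single lists and on scaling. Without empty vector replicate 1, limma called 21 cluster bins higher, without empty vector replicate 2 13 higher and 2 lower, without TCF1 KO replicate 1 4 and without TCF1 KO replicate 2 5. Without scaling it called 28, where the median of all bins moved to 0.41. With the numbers of peaks in place of covered bases it called 2, and with peaks at or above the median width alone 1.

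**Figure D4:**
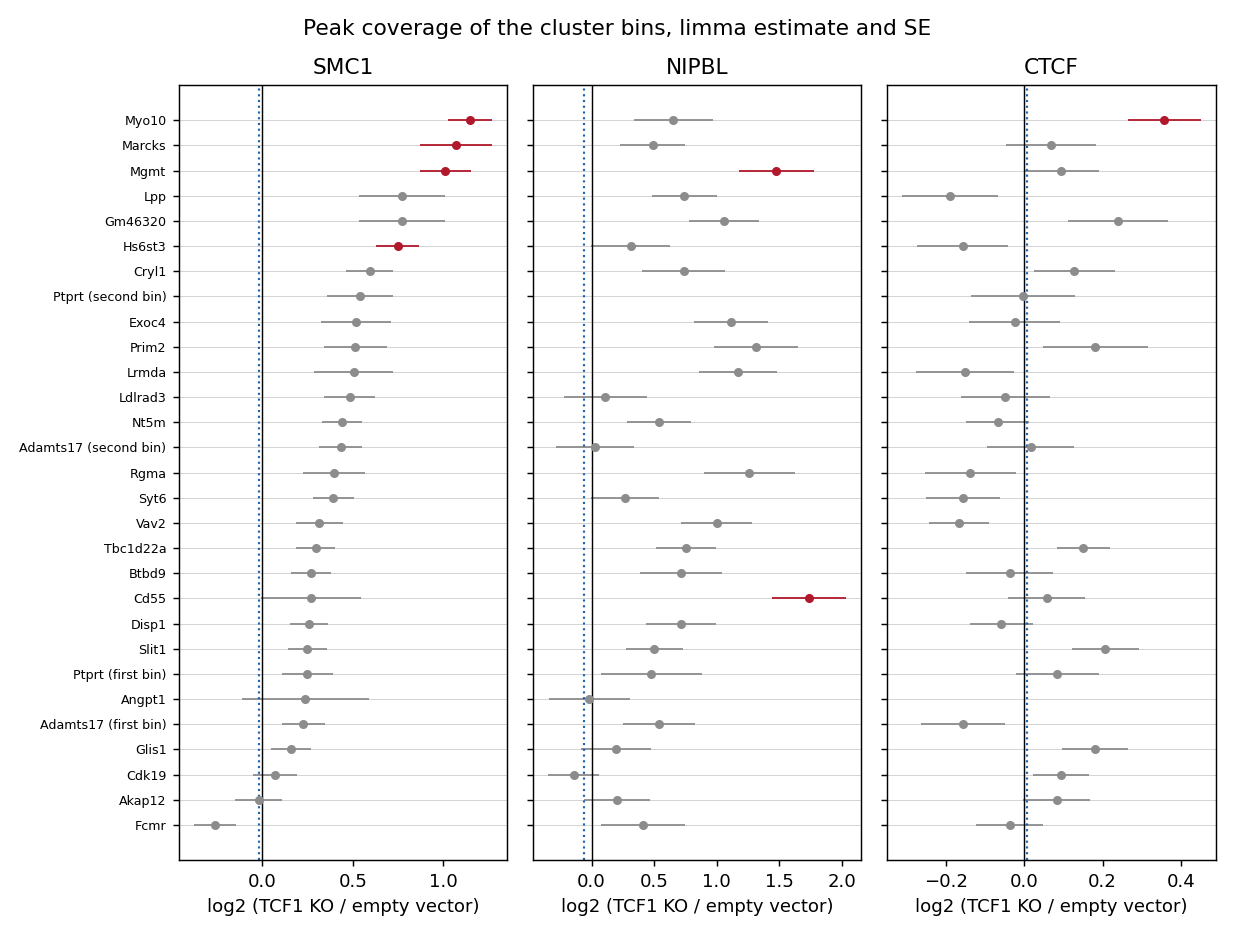
log2 fold change of TCF1 KO over empty vector in peak coverage of each cluster bin (x axis, points with SE, separate scales) for SMC1, NIPBL and CTCF, with bins ordered by the SMC1 estimate. Red points have an adjusted p under 0.05 by limma (4, 2 and 1 bins), the solid line is 0 and the dotted line is the median of all other autosomal bins. SMC1 estimates lie above 0 in 27 of 29 bins and CTCF estimates in 14 of 28.

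NIPBL peaks were rare on the members themselves. In TCF1 KO 8.64% and 1.85% of members overlapped one, and with empty vector 0% and 0.926%, a mean difference of 4.78 points (exact permutation p = 0.333). Outside the clusters the shares were 11.9% and 3.70% in TCF1 KO and 0.536% and 2.39% with empty vector. Regions of every list in the cluster bins had NIPBL in 48.5% and 31.4% of cases in TCF1 KO and 14.4% and 26.6% with empty vector. TCF1 KO replicate 1 had the longest NIPBL list and the highest share in each set, and with lists of equal length the difference over 557 members was 0.27 points.

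Over the bins, NIPBL coverage rose in 2 of 28 tested bins by limma, where 0.506% of 2173 autosomal bins were called higher. The bin without a test was the one inside Ptprt, with 3.32 and 1.42 kb in TCF1 KO and no NIPBL peak with empty vector. In the Cd55 bin NIPBL covered 11.3 and 4.37 kb in TCF1 KO and 0.341 and 1.23 kb with empty vector, a log2 fold change of 1.74 (SE 0.30, limma adjusted p = 0.0136). In the Mgmt bin it covered 17.7 and 8.13 kb in TCF1 KO and 0.815 and 4.02 kb with empty vector, a log2 fold change of 1.48 (SE 0.30, limma adjusted p = 0.0373). The Mgmt bin was called for both SMC1 and NIPBL. Estimates were above 0 in 26 of the 28, with a median of 0.60 against −0.057 over all other autosomal bins. Before scaling, both TCF1 KO lists were above both empty vector lists in 22 of 29 bins, where 30.8% of all bins with a NIPBL peak were. Those bins include any with a single NIPBL peak and are not matched to the cluster bins for acetylation or NIPBL coverage.

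Knockout-only NIPBL regions numbered 62 of 509 in the cluster bins (12.2%), where 5.89% of autosomal NIPBL regions were knockout-only, and 0 were held by the empty vector lists alone, where 0.251% were. They lay on regions acetylated in every list in 55 cases and on members in 2. The Slit1 bin had 7 of them, the Cd55 bin 6, and the Rgma, Tbc1d22a and Btbd9 bins 5 each. The NIPBL calls did not hold under most alternatives. Limma called no cluster bin with a pseudocount of 200 bp, with no filter, without scaling, with bins shifted by 250 kb, with lists of equal length, with peaks at or above the median −log10 q-value, or without either TCF1 KO list, and 5 to 18 bins had an unadjusted p under 0.05 there. The median NIPBL estimate of the cluster bins was 0.32 to 1.30 in those settings, and that of the Cd55 bin 1.44 to 2.30 over its 12 alternatives. It called 4 without empty vector replicate 1 and 10 without empty vector replicate 2.

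CTCF differed little in the clusters. Members overlapped a CTCF peak in 9.26% and 9.26% of cases in TCF1 KO and in 6.79% and 8.33% with empty vector, a difference of 1.70 points (exact permutation p = 0.333) that was −0.27 points with lists of equal length. Knockout-only regions outside the clusters had CTCF more often, with 16.6% and 15.3% in TCF1 KO and 12.7% and 15.2% with empty vector. Of 598 CTCF regions in the cluster bins 35 (5.85%) were knockout-only, where 6.35% of autosomal CTCF regions were, and 3 (0.502%) were held by the empty vector lists alone, where 0.453% were. Limma called 1 of 28 tested bins higher, where 2.4% of 3416 bins were, and 0 lower, where 0.439% were. Of the estimates, 14 of 28 were above 0, with a median of 0.0069 against 0.0080 over all other autosomal bins. That bin was Myo10, with 9.71 and 7.51 kb in TCF1 KO and 4.24 and 5.79 kb with empty vector, a log2 fold change of 0.36 (SE 0.09, limma adjusted p = 0.0383, and 0.00472 to 0.544 over 12 alternatives). Both TCF1 KO lists were above both empty vector lists in 11 of 29 bins before scaling, where 56.1% of all bins with a CTCF peak were. The Myo10 bin was not called without TCF1 KO replicate 1 or without TCF1 KO replicate 2, and 2 cluster bins were called without empty vector replicate 2.

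**Figure D5:**
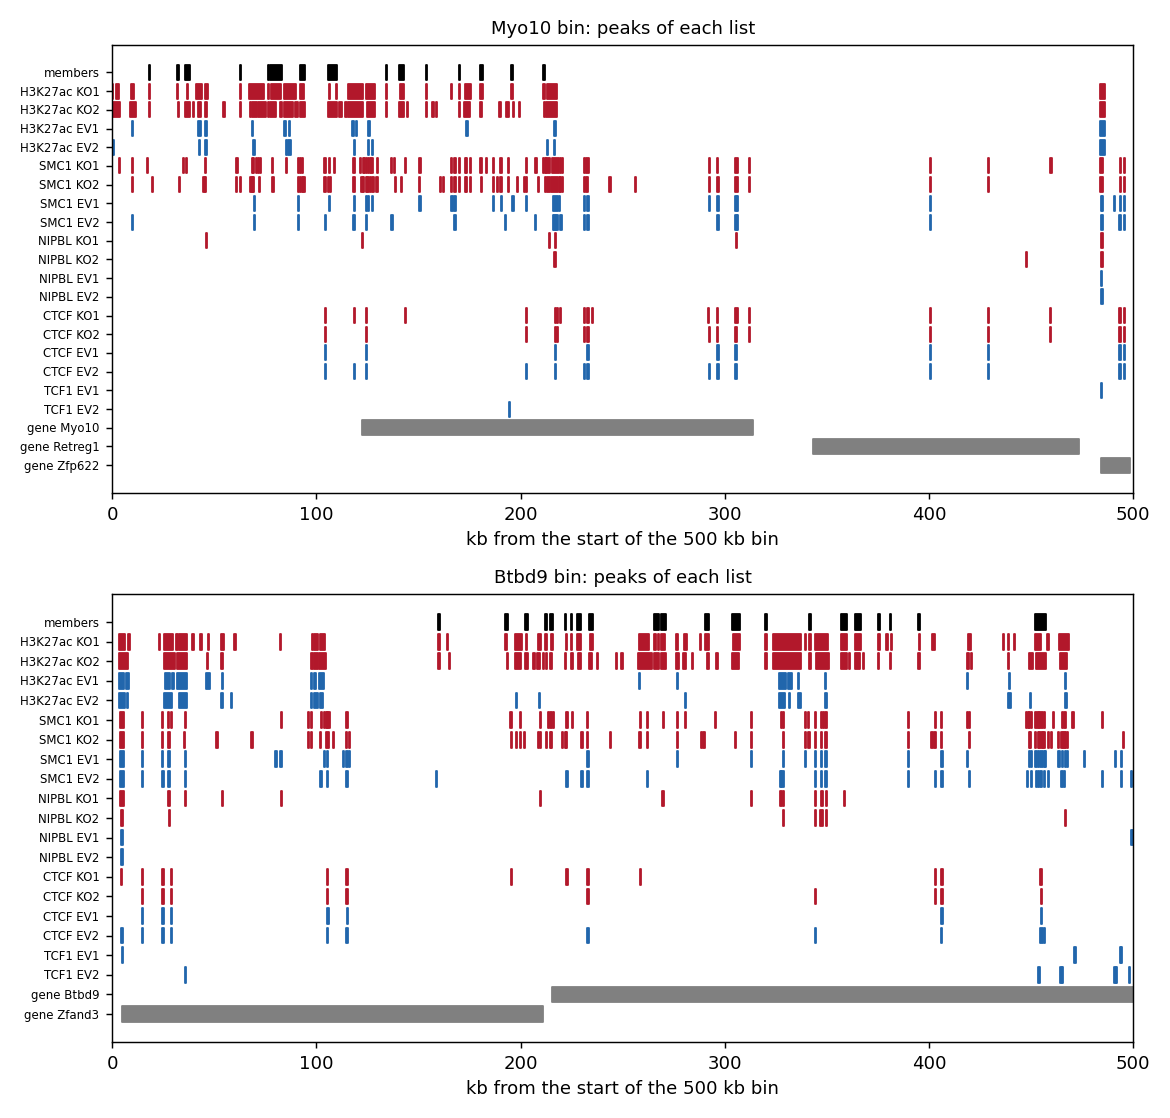
Peaks of every list across the Myo10 and Btbd9 bins (x axis, kb from the start of the bin), with members in black, TCF1 KO lists in red, empty vector lists in blue and gene bodies in grey. In the Myo10 bin 15 members and 28 and 39 H3K27ac peaks of the TCF1 KO lists face 12 and 12 of the empty vector lists, and in the Btbd9 bin 21 members and 55 and 51 peaks face 19 and 19.

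TCF1 itself was seldom on the members in cells that had it. The TCF1 lists with empty vector put a peak on 4 and on 5 of the 324 members, and sites in both lists lay on 2 (0.617%, 95% Wilson interval 0.169% to 2.22%, which covers counting error only). Those were chr1:130837898-130839369 in Pigr and chr16:24328275-24329407, 63.9 kb from Lpp. The share was 0.244% for knockout-only regions outside the clusters and 7.5% for regions of every list within the same bins. For empty-vector-only regions of the autosomes, with a median width of 946 bp, it was 0.205%. Regions of every list in the bins were wider than members, with medians of 3720 and 1220.5 bp, and the shares are not matched for width. A TCF1 list of TCF1 KO cells was not analysed here. The cluster bins held 47 TCF1 sites of both lists in 20 of the 29 bins, those on members included. That was 1.62 per bin, against 0.988 over all 3102 autosomal bins with an H3K27ac region, of which 47.7% had a site. Cluster bins were also richer in acetylation, with 1509 H3K27ac regions, where the 3102 bins held 48966 regions and 3066 sites. The values per bin are not matched for this. The Cdk19 bin had 9, the Disp1 bin 5, and the Fcmr and Akap12 bins 4 each. From a member the nearest TCF1 site in both lists lay at a median of 151 kb, against 139 kb outside the clusters and 87.2 kb for regions of every list in the bins. Among knockout-only regions of the bins, 0 of 358 for SMC1, 2 of 62 for NIPBL and 2 of 35 for CTCF overlapped such a site. The same shares over all autosomes were not computed, so these counts are no result about the regions.

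Members lay away from gene ends. Within 1 kb of either end of a protein-coding gene were 10 members (3.09%), against 4.97% outside the clusters and 15% of regions of every list in the bins. Inside a gene body were 59.0% of members, 63.8% of knockout-only regions outside the clusters and 65.3% of regions of every list in the bins. The cluster bins held 129 protein-coding genes, 57 of which had a member in their body.

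Genes of 9 lists of T cell biology were looked for at the members and in the cluster bins. These were 18 T lineage regulators, 18 genes of the T cell receptor and its signalling, 14 Wnt targets, 10 Notch targets, 14 cytokine and chemokine receptors, 12 effector and innate genes, 11 stem and progenitor factors, 10 genes of survival and cell cycle and 10 of adhesion and migration. No listed gene had a member within 10 kb of its body or lay in a cluster bin, where 0.306% of all 21896 protein-coding genes had such a member. Knockout-only regions of any kind lay within 10 kb of 4 T lineage regulators, 7 T cell receptor and signalling genes, 1 Wnt target, 2 receptors, 1 stem and progenitor factor and 2 survival genes, where 6.54% of all protein-coding genes had one. Read against the first of these shares, a count of 0 is no result about the lists.

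At the threshold itself, 10 bins had exactly 8 knockout-only regions and 15 had 7. Bins with 8 had median H3K27ac coverage of 124 and 126 kb in TCF1 KO and 67.7 and 62.9 kb with empty vector, and those with 7 had 87.2 and 90.6 kb in TCF1 KO and 71.2 and 69.1 kb with empty vector. Bins just outside included the neighbours of the Lpp and Mgmt bins. Leaving out TCF1 KO replicate 1 gave 178 bins, TCF1 KO replicate 2 157, empty vector replicate 1 51 and empty vector replicate 2 65. Each of these settings loosens the rule, since only 1 list of that condition then has to hold or lack a region. Higher counts are favoured by this and do not measure how far the clusters depend on a list. With peaks at or above the median −log10 q-value of their list, no bin had 8.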

How the data were processed

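Peak lists were deposited for 25 samples. Cells were fixed with 1% formaldehyde and libraries were sequenced in pairs, per the labels' protocols. Bowtie2, MACS2, bedtools and the mm10 build are named per the submitters' processing notes, without a version. The CTCF, SMC1 and TCF1 lists hold positions only. In the H3K27ac and NIPBL lists the authors deposited, for each peak, a −log10 q-value, used to rank and describe peaks, and a fold enrichment, used to describe them. A score and a −log10 p-value that the authors deposited beside these were not used.

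Peaks were merged at a gap of 0, and an overlap of 1 bp placed a region in a list. Covered bases of SMC1, NIPBL and CTCF were summed per 500 kb bin, scaled to the mean list total and compared with limma 3.58.1 (R 4.3.3) on log2(bp + 1000), over autosomal bins with a mean of at least 1000 bp, with Benjamini-Hochberg adjustment over all bins tested. Shares were compared over lists with exact permutation tests. Python 3.11.15, numpy 2.4.6, pandas 2.3.3, scipy 1.17.1 and matplotlib 3.10.9 were used. On simulated bins with the spread of these lists, limma recovered 74.5% of 200 SMC1 bins changed by 1 on the log2 scale, 0% for NIPBL and 90.5% for CTCF, and at a change of 2 94%, 85.5% and 98.5%.

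Members, gene lists, markers and tests were chosen with earlier results of these data known. Named genes were the protein-coding gene whose body overlapped most members of each bin, or the nearest one. Other genes were named after their values were seen. The RefSeq gene table was of GRCm38.p6. No genome sequence was used here, so the sequence of members is not printed, and promoters they overlap are shown instead. Replicate numbers were not taken to pair the lists. The alternatives tried were other overlaps, merging, thresholds, list lengths, bins, scaling, pseudocount and filter, a replicate block, and leaving out each list.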

Additional observations from a re-analysis of the deposited data

How the results depend on the processing

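The number of cluster bins stayed at 28 to 30 with an overlap of 50%, merging across 500 bp, bins shifted by 250 kb, assignment by midpoint and sex chromosomes included. It was 0, with 0 members, for peaks at or above the list median. It was 50, with 557 members, for lists of equal length, 74 with 609 members at 6 or more regions per bin, and 17 at 10 or more. Leaving out 1 list, which loosens the rule, gave 51 to 178 bins and 568 to 2242 members.

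The difference in the share of members with SMC1 was 10.1 points with lists of equal length, 16.3 to 18.4 points with an overlap of 50%, merging across 500 bp, shifted bins and 6 or 10 regions per bin, and 16.8 to 18.4 points without 1 SMC1 list. It was not computed by midpoint, with sex chromosomes or without 1 H3K27ac list. For NIPBL it was 1.39 to 8.18 points without 1 list, and 0.27 with lists of equal length. For CTCF it was 0.926 to 2.47 points without 1 list, and −0.27 with lists of equal length, where the direction turned. These ranges without 1 list left out a list of the antibody named and kept the 324 members. Leaving out 1 H3K27ac list instead chose the members anew, 568 to 2242 of them. Of those members 0.161% to 0.543% lay at TCF1 sites and 1.96% to 2.82% within 1 kb of a gene end.

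Limma called 4 to 21 cluster bins higher for SMC1 without 1 list, 0 to 10 for NIPBL and 0 to 2 for CTCF. It called 2, 7 and 0 bins for SMC1, NIPBL and CTCF by number of peaks, 28, 0 and 0 without scaling, 1, 0 and 0 with peaks at or above the list median, and for NIPBL and CTCF 0 and 0 with no filter and with lists of equal length. For NIPBL it called 0 with a pseudocount of 200 bp and with bins shifted by 250 kb. Where limma called 0 CTCF bins, 0 to 4 had an unadjusted p under 0.05. The median CTCF estimate turned to −0.068 with bins shifted by 250 kb and with lists of equal length, and was −0.036 to 0.074 without 1 list, lowest without empty vector replicate 1.

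Deviations of same-numbered lists from their group means had a correlation over bins of 0.19 for SMC1, −0.22 for NIPBL and −0.11 for CTCF, and with 2 pairs the numbers were not taken as a pairing. With the replicate block, limma called 6 bins for SMC1, 3 for NIPBL and 1 for CTCF, and the mean differences of the shares within each number were 17.6, 4.78 and 1.70 points. A crossed replicate block, added after the data were seen, called 0 for NIPBL and 1 for CTCF. The causes of these changes were not tested. Without 1 list, the lone list of a condition is assumed to vary like the other condition. The lists carry no read totals, so depth cannot be weighed, and the absence of a peak in a list is not the absence of the mark.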

Other observations

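With bins shifted by 250 kb, 29 bins again passed, with 334 regions, and 228 of the 324 members (70.4%) were among them. Shifted bins with no member were led by Ripor2, with 9 knockout-only regions, Kalrn with 8, Med27, a Mediator subunit, with 13, Prom1 with 10 and Pcsk6, a proprotein convertase, with 8, and 1 bin on chromosome 9 with 8 regions had none inside a protein-coding gene. Of the 13 regions at Med27, 10 lay in the gene body. These bins show which further loci the fixed grid leaves out.

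In NIH-3T3 fibroblasts, whose lists played no role in the choice of members, SMC1 peaks lay on 20.7% of members in cells induced to express TCF1 and on 19.1% in untreated cells, 1 list each, so there is no replicate check. CTCF peaks lay on 9.57% and 8.33% of members in induced cells and on 5.25% and 4.94% in untreated cells. The induced CTCF lists covered 37.6 and 34.3 Mb and the untreated ones 17.8 and 20.1 Mb, and the shares are not matched for this. For H3K27ac regions of every list over all autosomes the CTCF shares were 40.5% and 37.6% in induced cells and 28.4% and 30.2% in untreated cells. For knockout-only regions outside the clusters the CTCF shares were 15.5% and 15.3% in induced cells and 11.3% and 12.2% in untreated cells. The fibroblast TCF1 list had a peak on 17 members (5.25%), against 6.68% outside the clusters and 23.3% of regions of every list in the same bins.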
